A study of Canis lupus familiaris with 7 samples.

Results

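The expression profile of canine chromosome 13, the chromosome that carries MYC, was measured with 581 microarray probes in 7 canine primary osteosarcoma (OS) tumours. The array placed 809 probes on chromosome 13 of the canFam2 genome build, and the 581 described here were chosen by their signal, as those well above the local background on 3 or more of the 7 arrays, out of 32309 such probes among the 43603 on the whole array. The other 228 probes were left out, and 134 of those were not well above background on any array. Members carried 193 gene symbols on 322 probes, 303 of them named in the files and 19 through the RefSeq gene table by accession or gene number, and the other 259 members had no symbol.

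The study compared tumours with a deletion of DLG2, a gene of chromosome 21 that encodes a membrane scaffold protein, with tumours in which DLG2 was intact. The DLG2 deleted group held 4 tumours. Tumour 1 came from a Mixed Breed (German Shepherd/Collie/X) dog of 8 years, tumour 2 from a Rottweiler X of 9 years, tumour 3 from a Greyhound of 6 years and tumour 4 from a Great Pyrenees of 7 years. The DLG2 wild type group held 3 tumours, from a Boxer of 12 years, a Mixed Breed (Labrador Retriever/X) dog of 10 years and a Bull Mastiff of 8 years. The gender labels were MC for deleted tumours 1 and 3 and wild type tumour 3, and FS for the others. The labels named no treatment, and all 7 were pieces of primary tumour tissue from different dogs, so each array measured the RNA of all cells in the piece, and breed, age and dog varied together with the tumour.

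MYC encodes a transcription factor that pairs with MAX on DNA and drives genes of ribosome production, nucleotide synthesis and cell growth. Chromosome 13 is a chromosome that canine OS often gains as a whole or in part, and it holds MYC in its first part and a cluster of receptor tyrosine kinase genes, PDGFRA, KIT and KDR, further along. When a chromosome is gained, many of its genes can be expressed a little higher together, which is why probes were summarised by position. DNA copy number was not analysed here.

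Each value below is a normalized log2 intensity. For every probe the median over the 7 tumours was subtracted, and the difference that remained is called its deviation. Just inside the threshold of 3 arrays, 11 probes were well above background on exactly 3, with means over the 7 tumours of 6.00 to 6.15, and just outside it 30 were so on exactly 2, with means of 5.95 to 6.24. The value of a 5 Mb window, counted from the chromosome start, is the median deviation of its members in a tumour. Because the members were selected on signal, and windows were named for their deviations, the deviations are given as a description with no test.

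The following 6 probe sequences, as deposited and in the 5′ to 3′ direction of the probe, show what was measured at the places the results turn on: MYC itself, CPSF1 and FBXL6 from the window with the highest value among those with 20 or more members, STK3 from the lowest of those windows, and PDGFRA and KIT from the kinase cluster. All letters are in lower case because no base is singled out.
MYC: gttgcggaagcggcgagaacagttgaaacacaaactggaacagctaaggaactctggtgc
CPSF1: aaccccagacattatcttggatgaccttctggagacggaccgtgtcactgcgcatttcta
FBXL6: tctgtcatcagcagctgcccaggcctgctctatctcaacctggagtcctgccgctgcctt
STK3: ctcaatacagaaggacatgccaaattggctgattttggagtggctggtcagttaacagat
PDGFRA: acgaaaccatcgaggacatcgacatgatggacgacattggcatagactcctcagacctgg
KIT: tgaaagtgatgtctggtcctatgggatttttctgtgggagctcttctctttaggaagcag
The MYC probe lay at chr13:28242482-28242541, the CPSF1 probe at chr13:40847355-40847489, the FBXL6 probe at chr13:40811019-40811078, the STK3 probe at chr13:3839416-3839983, the PDGFRA probe at chr13:49705792-49705851 and the KIT probe at chr13:50120229-50120401, all in canFam2. Each is 60 bases long. The KIT, CPSF1 and STK3 probes covered 173, 135 and 568 bases of the genome, so each crossed at least 1 intron, as did 95 members in all by their coordinates. The exon or untranslated region of a probe was not annotated here.

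Several facts of the whole series touch the profile. Per tumour, 30280 to 34538 probes passed the background mark, and none was saturated. Wild type tumours 1 and 2 had nearly the same profile, with a Pearson correlation across all kept probes of 0.987 and a median absolute difference of 0.14, while the other tumour pairs ranged from 0.935 to 0.965 and from 0.23 to 0.32. On deleted tumour 1, the median corrected intensity was 864.2 with all spots and 111.3 once the 4 spots with a local background over 1000 intensity units were left out, and spots whose background was marked as uneven were left out on every array for that reason. The DLG2 probe on chromosome 21 read 10.35, 11.44, 10.49 and 10.84 across deleted tumours 1 to 4 and 10.91, 12.04 and 11.76 in the 3 wild type tumours, and these ranges overlapped. Of 7 osteoblast genes on the array, among them COL1A1, RUNX2 and ALPL, 6 were well above background on every array. Those 7 genes were all lowest in deleted tumour 2, where 8 of 10 cartilage genes were at their highest.

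Chromosome 13 was the highest chromosome in deleted tumour 2 and, by a narrow margin, the lowest in deleted tumour 3. In deleted tumour 2 the median deviation of the 581 members was 0.25, the highest of all chromosomes in that tumour: the 38 others, 37 autosomes and X, ranged from -0.12 to 0.22. In deleted tumour 3 it was -0.08, the lowest of all chromosomes, although the next lowest was also -0.08 when rounded. Deleted tumour 1 was at 0.03, with 3 chromosomes higher, and deleted tumour 4 and the 3 wild type tumours were at 0.00. The median over all kept probes was 0.00 in every tumour. Under 5 ways of correcting and scaling the arrays, this one included, deleted tumour 2 kept chromosome 13 as its highest chromosome in all 5, from 0.15 to 0.48, and deleted tumour 3 had it lowest in 3. In deleted tumour 3, 1 chromosome was lower when the spots with uneven background were kept. Scaling the normexp values to the 75th percentile put chromosome 13 of that tumour at 0.00, or -0.03 relative to all its probes. The processed signal scaled in the same way kept it lowest, at -0.21. In a piece of tumour, fewer cells of a type and less RNA per cell cannot be told apart, and a value for a chromosome is an average over whatever cells the piece held.

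**Figure D1:**
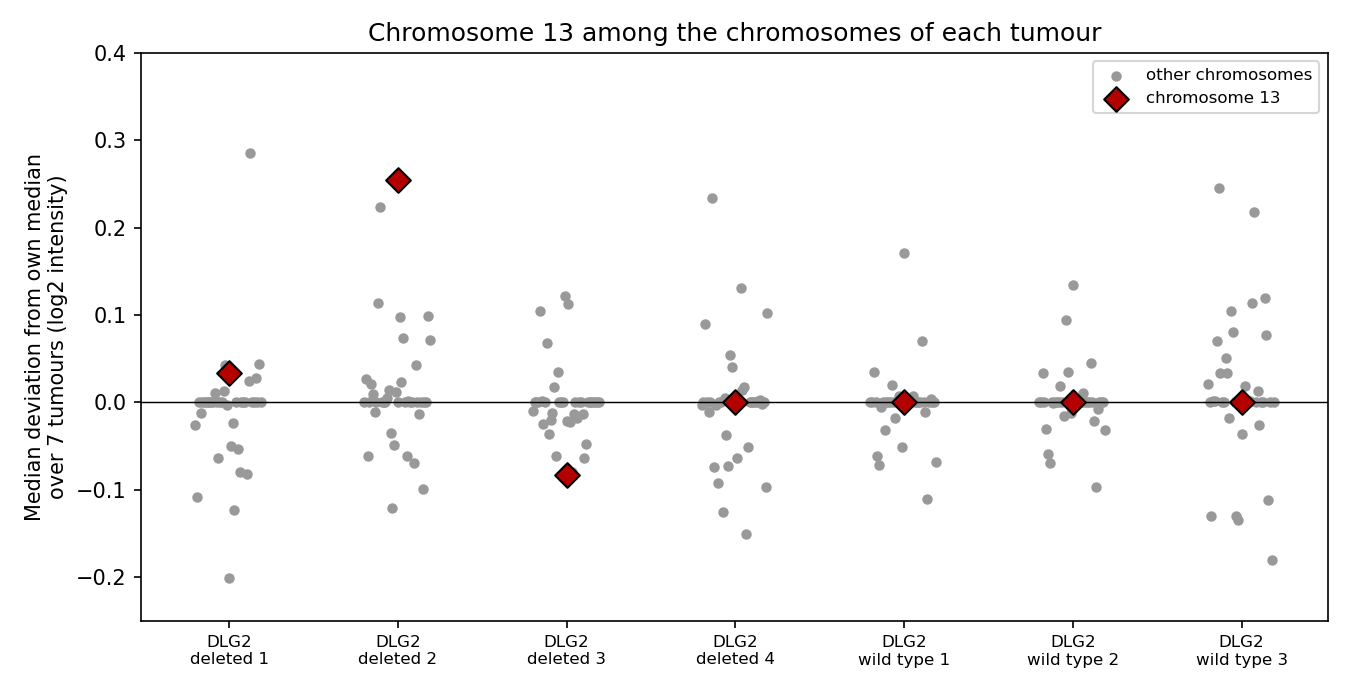
Median deviation from the probe's own median over the 7 tumours (log2 intensity, vertical axis) for chromosome 13 (red diamonds) and for each of the 38 other chromosomes (grey points) in each tumour. Chromosome 13 is the highest point in DLG2 deleted tumour 2, at 0.25, and the lowest in DLG2 deleted tumour 3, at -0.08, which held in 3 of 5 ways of correcting and scaling the arrays.

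The same contrast held probe by probe. In deleted tumour 2, 74.4% of members were above their own median, against 45.2% of all kept probes. Of the members, 259 (44.6%) had their highest value of the 7 tumours in deleted tumour 2, against 16.8% of all kept probes, and 34 (5.85%) had their lowest there, against 15.6%. In deleted tumour 3 only 24.6% of members were above their own median, against 41.2% of all, and 170 members (29.3%) had their lowest value there, against 13.3%, and 34 (5.85%) their highest, against 13.3%. In deleted tumour 1, 54.7% of members were above their median, against 42.9% of all, 113 (19.4%) were at their highest, against 17.2%, and 79 (13.6%) at their lowest, against 18.9%. Deleted tumour 4 held the highest value of 49 members (8.43%, against 18.6%) and the lowest of 87 (15.0%, against 18.9%). Wild type tumours 1, 2 and 3 held the highest value of 6.37%, 4.99% and 10.3% of members, against 9.54%, 8.41% and 16.2% of all kept probes, and the lowest of 11.5%, 10.3% and 14.5%, against 9.58%, 10.1% and 13.6%. Those last 4 tumours had 32.2% to 38.7% of members above their median, against 39.6% to 46.0% of all kept probes.

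**Figure D2:**
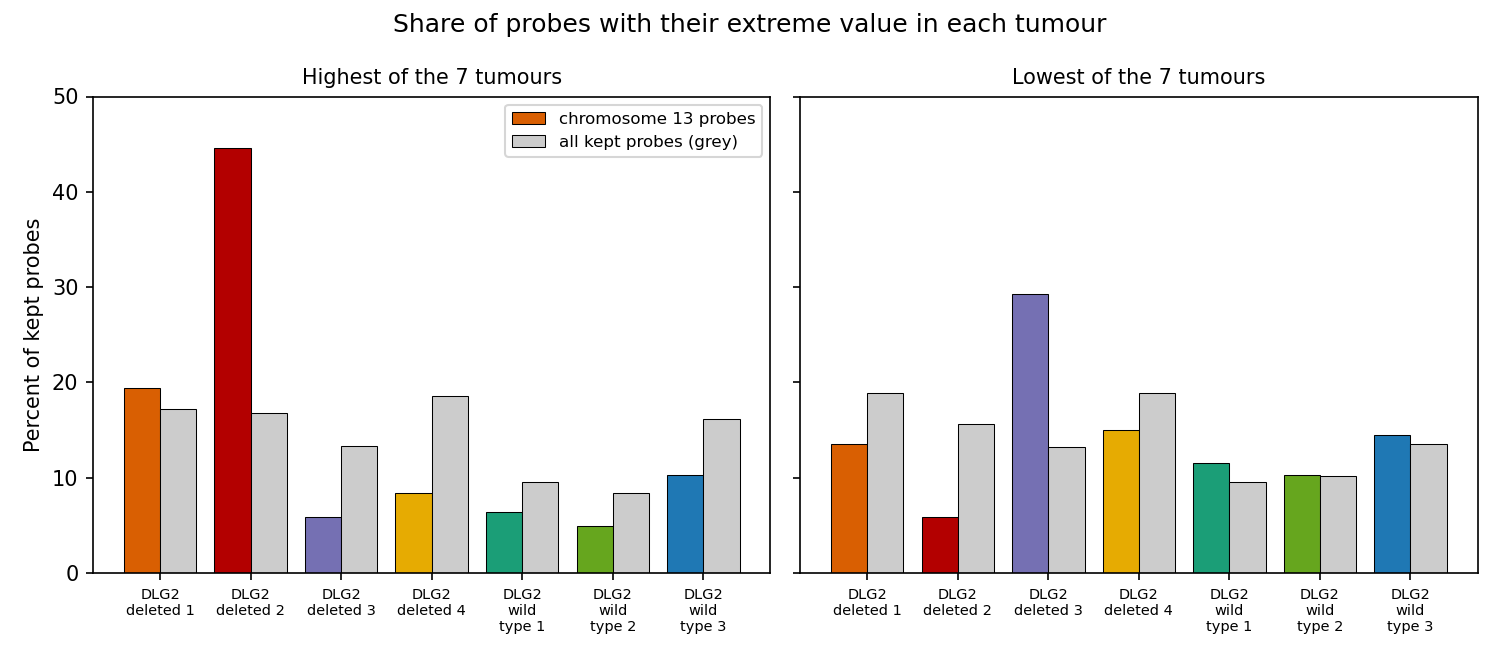
Percent of kept probes (vertical axis) whose highest (left) or lowest (right) value of the 7 tumours was in the tumour named, for the 581 chromosome 13 probes (coloured bars) and for all 32309 kept probes (grey bars). In DLG2 deleted tumour 2 the share at the highest value was 44.6% on chromosome 13 and 16.8% over all probes, and in DLG2 deleted tumour 3 the share at the lowest value was 29.3% and 13.3%.

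The size of the value depended on which members were read. In deleted tumour 2, the 290 brighter members, those with a mean over all tumours above the members' median, had a median deviation of 0.55, and the 291 dimmer ones 0.10. With 1 probe for each of the 193 genes it was 0.39, and against the median of the other 6 tumours alone it was 0.33. Members with more G and C in the probe stood at 0.31 and those with less at 0.23. In deleted tumour 3 the brighter members stood at -0.21 and the dimmer at -0.03, while those with more G and C stood at -0.01 and those with less at -0.17. Over all kept probes that were as bright as the brighter members, the median was 0.00 in each tumour. Against the median of the other 6 tumours, deleted tumours 1, 3 and 4 stood at 0.08, -0.14 and -0.04. The 3 wild type tumours then stood at -0.02, -0.05 and -0.02, while all kept probes lay between -0.01 and 0.02 in each tumour.

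The 5 Mb profile of deleted tumour 2 was raised along the whole chromosome. Of the 14 windows, 11 held 20 or more members. All 11 were above 0 in deleted tumour 2, from 0.14 to 0.38, and 10 of them had their highest value of the 7 tumours there. The highest of these 11 was the window from 40 to 45 Mb, with 121 members, at 0.38, and the next was the MYC window from 25 to 30 Mb, with 32 members, at 0.35. Among the 432 other windows of the genome with 20 or more probes, 1 was higher than the former in that tumour, and 2, the former included, were higher than the latter. The MYC window value of deleted tumour 2 ran from 0.14 to 0.75 over 21 settings, this one included, that changed the window, the scaling, the filter, the choice of probes or the tumours used. The lowest values of the 11 were 0.14 at 20 to 25 Mb and 0.14 at 30 to 35 Mb, on either side of the MYC window. The 3 windows with fewer members were also above 0, at 0.44 from 15 to 20 Mb with 13 members, 0.17 from 55 to 60 Mb with 4 and 0.39 from 65 to 70 Mb with 13.

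**Figure D3:**
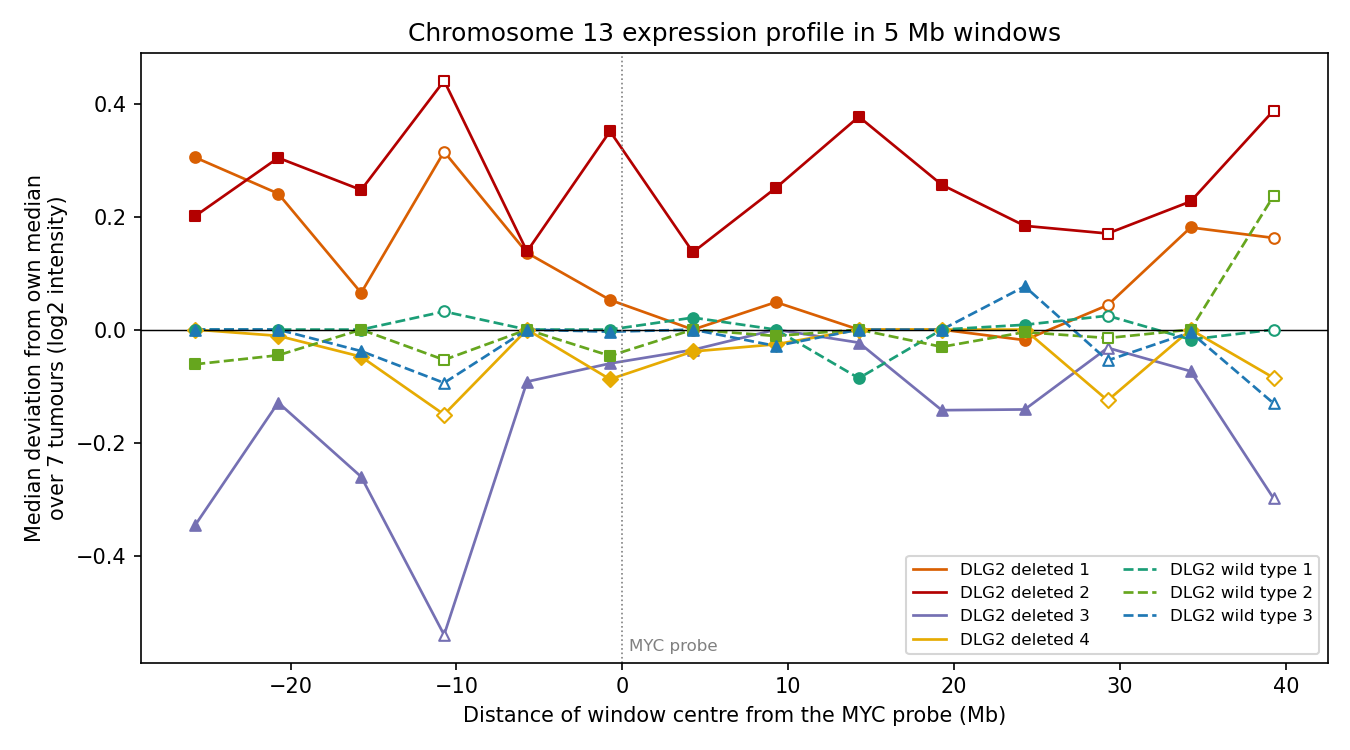
Window value (median deviation of the members, log2 intensity, vertical axis) along chromosome 13 against the distance of the window centre from the MYC probe in Mb, with a line per tumour (solid, DLG2 deleted; dashed, DLG2 wild type). Open symbols are windows with fewer than 20 members. DLG2 deleted tumour 2 is above 0 in all windows, DLG2 deleted tumour 3 is lowest on the left, and the wild type tumours keep between -0.09 and 0.08 in the windows with 20 or more members.

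Among the 11 windows with 20 or more members, deleted tumours 1 and 3 lay farthest from 0 at the chromosome start. In the window from 0 to 5 Mb, with 24 members, deleted tumour 1 was at 0.30, deleted tumour 2 at 0.20 and deleted tumour 3 at -0.35, while deleted tumour 4 and wild type tumours 1 to 3 were at 0.00, 0.00, -0.06 and 0.00. Deleted tumour 3 was below 0 in 10 of the 11 windows and lowest of the 7 tumours in 7 of them, and only 1 of the 432 other windows of the genome was lower in it than 0 to 5 Mb. In the smaller window from 15 to 20 Mb, deleted tumour 3 was at -0.54 and deleted tumour 1 at 0.31. Deleted tumour 1 was also at 0.24 from 5 to 10 Mb, then at 0.00 from 40 to 50 Mb, and at 0.18 from 60 to 65 Mb. Deleted tumour 4 was at 0.00 or below in all 11 windows, with its lowest value, -0.09, in the MYC window. The 3 wild type tumours stayed between -0.09 and 0.08 in the 11 windows.

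MYC did not follow its window. The MYC probe read 8.25 in deleted tumour 1, 9.81 in deleted tumour 2, 9.43 in deleted tumour 3 and 9.96 in deleted tumour 4. It read 9.25, 8.92 and 9.00 in wild type tumours 1, 2 and 3. The wild type values lay inside the range of the deleted values, with deleted tumour 1 lowest and deleted tumour 4 highest of all. Without the MYC probe, the other 31 members of its window stood at 0.06, 0.33, -0.06 and -0.12 in deleted tumours 1 to 4, where the MYC deviation was -1.01, 0.55, 0.18 and 0.71. Thus the tumour with the highest MYC value had the lowest window value, and the tumour with the lowest MYC value had a window slightly above 0. The second of these depended on the window width. In windows of 2.5 Mb, the one with MYC stood at -0.08, 0.20, 0.11 and -0.15 in deleted tumours 1 to 4. Deleted tumours 1 and 3 then had the sign of MYC, and deleted tumour 4 still did not. In wild type tumours 1, 2 and 3 the window stood at 0.00, -0.04 and 0.00 and MYC at 0.00, -0.34 and -0.25.

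Between the groups, MYC averaged 9.36 ± 0.78 (SD, n = 4) in the DLG2 deleted tumours and 9.06 ± 0.18 (SD, n = 3) in the wild type tumours. Their difference, 0.30 (SE 0.41), was within the spread, with a limma adjusted p of 0.925 over all 32309 probes and a two-sided exact permutation p of 0.571 over the 35 ways to split the tumours, where the smallest possible p is 0.0571. It was 0.67 without deleted tumour 1, 0.15 without deleted tumour 2 and 0.10 without deleted tumour 4. It was 0.02 with the session in which the images were read as a term, and 0.70 with the array slide as a block. The slide block compares only deleted tumours 2 and 3 with wild type tumour 2, since no other tumours shared a slide, so it gives an effect size only.

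In the MYC window, 78.1% of the 32 members were above their own median in deleted tumour 2. TRIB1, NSMCE2, RNF139 and FAM91A1 were named because their deviations in that tumour were among the largest of the window. Their high values there follow from that choice. TRIB1, which encodes a pseudokinase adaptor for protein degradation, read 10.48, 10.77, 10.09 and 9.05 across deleted tumours 1 to 4 and 9.28, 9.64 and 9.10 in the 3 wild type tumours. NSMCE2, a SUMO ligase of DNA repair, read 10.30, 10.80, 9.34 and 9.56 and then 10.20, 9.81 and 9.80. Both were highest in deleted tumour 2, and in both the groups overlapped. RNF139, a ubiquitin ligase of the endoplasmic reticulum, read 10.03, 11.11, 10.19 and 9.74 in the deleted and 10.23, 10.11 and 9.84 in the wild type tumours. FAM91A1, a protein of vesicle tethering at the Golgi, read 8.80, 9.58, 8.41 and 8.17 in the deleted and 8.34, 8.50 and 8.38 in the wild type tumours. In these genes deleted tumour 2 was the highest of 7, by 0.87 over the next for RNF139 and by 0.78 for FAM91A1, and deleted tumour 4 was the lowest. CYRIB, a regulator of the actin cytoskeleton and the only gene with a symbol after MYC in the window, read 8.66, 8.71, 8.77 and 8.45 in the deleted and 8.40, 8.64 and 7.86 in the wild type tumours.

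**Figure D4:**
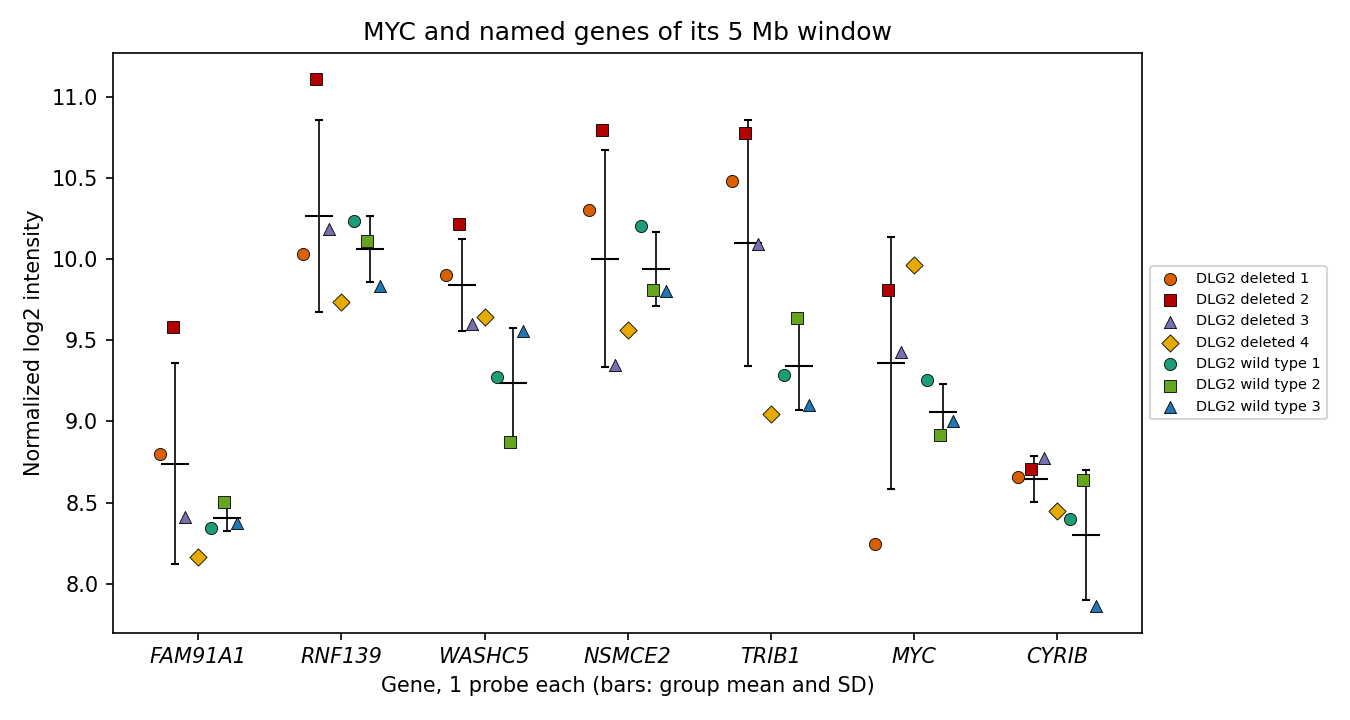
Normalized log2 intensity (vertical axis) of MYC and 6 named genes of its 5 Mb window, in order along the chromosome, with 1 probe each, in each tumour; black bars are group means with SD. DLG2 deleted tumour 2 is highest for FAM91A1, RNF139, TRIB1, NSMCE2 and WASHC5, genes named for their large deviations in it. For MYC, DLG2 deleted tumour 4 is highest, at 9.96, and tumour 1 lowest, at 8.25.

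WASHC5, a subunit of the WASH complex that shapes endosomes, was the gene of the MYC window whose groups did not overlap. It read 9.90, 10.21, 9.60 and 9.64 in the deleted and 9.27, 8.87 and 9.56 in the wild type tumours. Its groups differed by 0.61 (SE 0.22, limma adjusted p = 0.634), and the gap between wild type tumour 3 and deleted tumour 3 was narrow.

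Genes of the window from 40 to 45 Mb showed the same tumour at the top. CPSF1, the largest subunit of the complex that cleaves transcripts before polyadenylation, read 10.13, 11.72, 10.49 and 11.16 across deleted tumours 1 to 4 and 10.15, 10.46 and 10.28 in the 3 wild type tumours. CYC1, cytochrome c1 of the respiratory chain, read 11.37, 13.09, 11.69 and 11.96 in the deleted and 11.78, 11.87 and 12.15 in the wild type tumours. OPLAH, the oxoprolinase of glutathione turnover, read 9.27, 10.75, 8.25 and 9.16 in the deleted and 8.58, 8.93 and 8.71 in the wild type tumours. Deleted tumour 2 was highest in each, and the groups overlapped on these probes. A second, dimmer CPSF1 probe had separate groups, at 6.47 to 6.83 in the deleted and 6.29 to 6.42 in the wild type tumours, a difference of 0.26. On a second CYC1 probe the groups overlapped. LRRC14, a leucine-rich repeat protein, read 8.68, 9.95, 8.52 and 8.43 in the deleted and 8.50, 8.67 and 8.58 in the wild type tumours. FBXL6, an F-box protein, read 8.40, 9.72, 8.27 and 8.70 in the deleted and 8.04, 8.26 and 8.01 in the wild type tumours, so that its groups were separate by 0.01 (limma adjusted p = 0.752). The deviations of these 5 genes in deleted tumour 2 were between 1.22 and 1.82, and they were named because they were the largest of that window.

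At the chromosome start, the genes named for their large negative deviations in deleted tumour 3 were of several kinds. STK3, a kinase of the Hippo pathway, read 8.03, 7.82, 7.02 and 7.49 across deleted tumours 1 to 4 and 7.25, 7.36 and 7.31 in the 3 wild type tumours. HRSP12, a deaminase of reactive intermediates, read 8.40, 8.19, 7.48 and 7.82 in the deleted and 8.05, 7.62 and 8.58 in the wild type tumours. In both, deleted tumour 3 was the lowest of 7. LAPTM4B, a lysosomal membrane protein, read 7.87, 7.52, 6.41 and 6.30 in the deleted and 8.23, 7.50 and 6.75 in the wild type tumours, so that deleted tumour 4 was lower still. NIPAL2 was lowest in wild type tumour 2, at 6.24 against 6.25 in deleted tumour 3, and VPS13B was lowest in wild type tumour 2, at 8.21 against 8.26.

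Gene groups along the chromosome were read from lists by position and role, with 1 probe a gene. Of 29 measured genes of MYC and its neighbours, 14 were highest of the 7 tumours in deleted tumour 2, and their median deviation there was 0.45. The share highest there was 18.0% of all 11119 genes but 50.3% (97 of 193) of all chromosome 13 genes, whose median deviation was 0.39. Of 42 genes further along, between MYC and the kinase cluster, 26 were highest in deleted tumour 2, with a median of 0.64. Of 31 genes around KIT, 19 were highest there, with a median of 0.42, and of the 16 genes beyond them 8, with a median of 0.23. Genes of transcription and RNA handling were among them: POLR2B, a core subunit of RNA polymerase II, deviated by 1.26 and EXOSC4, a subunit of the RNA exosome, by 1.17. ATAD2, a bromodomain cofactor that lies near MYC, deviated by 1.12.

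Genes of replication, RNA and translation showed the 2 tumours side by side. Of 20 such genes on the side of the chromosome that holds MYC, 11 were highest in deleted tumour 2 and 11 were lowest in deleted tumour 3. Of all chromosome 13 genes, 50.3% were highest in the former and 32.1% lowest in the latter, against 18.0% and 12.3% of all genes. Their median deviation was 0.66 in deleted tumour 2, -0.28 in deleted tumour 3 and 0.25 in deleted tumour 1. EIF3E, a subunit of a translation initiation factor, read 15.03, 14.69, 13.21 and 13.40 across deleted tumours 1 to 4 and 14.13, 14.00 and 13.64 in the 3 wild type tumours. RAD21, a subunit of cohesin, read 12.36, 12.17, 11.19 and 12.00 in the deleted and 12.15, 12.03 and 12.19 in the wild type tumours, with deleted tumour 3 alone low. RPL8, a ribosomal protein of the distal part, went the other way from most of the list in deleted tumour 2, with a deviation of -0.26.

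The bone, cartilage and matrix genes of the chromosome had a median deviation of 0.00 in deleted tumour 2 over 13 measured genes, of which 3 were highest in it. HAS2, the hyaluronan synthase, was among those, at 9.70 in deleted tumour 2 against 6.51 to 7.73 in the other 6 tumours. EXT1, which builds heparan sulphate chains and is mutated in hereditary exostoses, read 12.81, 12.25, 12.08 and 11.35 in the deleted and 12.75, 12.55 and 12.97 in the wild type tumours. TNFRSF11B, the decoy receptor osteoprotegerin, read 9.14 in deleted tumour 4 and 6.08 to 6.38 in the others, and it was not well above background in deleted tumour 1. IGFBP7, a secreted protein of vessels and matrix, was 13.98 in deleted tumour 3 and 12.01 to 12.65 in the others. Deleted tumour 3 also had the highest value of 6 of 7 endothelial genes, and deleted tumour 2 of 8 of 10 cartilage genes. The summed level of the endothelial list was 12.95 to 14.39 on the log2 scale in the deleted and 12.46 to 13.17 in the wild type tumours, with 6 of 7 genes well above background on every array. That of the cartilage list was 11.85 to 15.89 and 11.43 to 14.01, with 7 of 10. Deleted tumour 4, where TNFRSF11B was high, had the highest value of 4 of 5 adipocyte genes. ADIPOQ, the fat cell hormone adiponectin, read 13.39 there and 6.45 to 7.54 in the others, and the summed level of the adipocyte list was 13.92 in that tumour and 9.31 to 9.73 in the other 6, with 4 of 5 genes well above background on every array. The part of these cells in the results was not tested.

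The 3 receptor kinases each had a different order of tumours. PDGFRA, the receptor for platelet-derived growth factor, read 10.11, 10.11, 8.82 and 9.67 across deleted tumours 1 to 4 and 8.71, 8.05 and 9.87 in the 3 wild type tumours. KIT, the stem cell factor receptor, read 7.35, 8.25 and 8.12 in deleted tumours 1, 2 and 4 and 7.63, 7.28 and 6.85 in the wild type tumours. Its value in deleted tumour 3 carried an outlier mark and was left out of the fit, and a second KIT probe read 7.43, 8.27, 7.16 and 8.06 in the deleted and 7.69, 7.25 and 6.73 in the wild type tumours. KDR, the VEGF receptor of endothelium, read 9.72, 9.91, 11.38 and 9.64 in the deleted and 9.24, 9.74 and 9.91 in the wild type tumours. Deleted tumour 2 was highest for KIT and deleted tumour 3 for KDR, and the groups overlapped in all 3 genes. The differences were 0.80 (SE 0.49) for PDGFRA, 0.65 (SE 0.31) for KIT and 0.53 (SE 0.45) for KDR, and none passed the test, with limma adjusted p-values from 0.739 to 0.878. That of KDR changed sign in 1 of 22 other settings.

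Across the chromosome no member passed the test between the groups. The limma test called 0 of 581 members at an unadjusted p below 0.05 with an adjusted p below 0.1, as it did 0.0% of all 32309 probes, and the smallest adjusted p among members was 0.396. An unadjusted p below 0.05 was found in 30 members (5.16%), against 7.33% of all probes. Of these, 20 (3.44%) were higher in the deleted tumours, against 3.15% of all, and 10 (1.72%) were lower, against 4.18%. In 43 members (7.40%) the groups did not overlap, against 8.17% of all, with 33 higher (5.68%, against 3.92%) and 10 lower (1.72%, against 4.26%). Without deleted tumour 2, the split at an unadjusted p below 0.05 was 12 higher and 22 lower, 34 members against 2563 of all probes. Here and in the settings that follow, the count over all probes holds both directions. The direction of the members therefore cannot be set against that of all probes in these settings. With age as a covariate the split was 36 and 10, 46 members against 1958 of all probes. Scaling to the 75th percentile gave 13 higher and 11 lower from the processed signal, against 2291 of all probes in either direction. From the normexp values it gave 25 and 7, against 2400 of all. The separate groups were then 23 and 14, against 2709 of all, or 53 and 7, against 3505. Among the 489 members well above background on every array, 19 were higher and 9 lower at an unadjusted p below 0.05. Of all 27437 such probes, 1967 passed that p in either direction.

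The averages of the groups were also close. The window value of the MYC window was 0.06 ± 0.20 (SD, n = 4) in the deleted tumours and -0.02 ± 0.03 (SD, n = 3) in the wild type tumours, a difference of 0.08 that was 0.02 without deleted tumour 2. It was 0.15 to 0.18 under 3 other scalings and 0.02 to 0.06 with windows of other widths or starts. The value of the whole chromosome differed by 0.05, by -0.01 without that tumour and by 0.06 to 0.13 under the 3 other scalings. On the slide that holds deleted tumours 2 and 3 and wild type tumour 2 the MYC window differed by 0.19, and within the 2 sessions of image reading by 0.11 and 0.05. Among the 193 genes, 133 were higher on average in the deleted tumours and 60 lower, with a median difference of 0.14, while among all 11119 genes 5859 were higher and 5260 lower, with a median of 0.01.

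ENPP2 had the widest gap between the groups among the named genes of chromosome 13. It encodes autotaxin, a secreted enzyme that makes the signalling lipid lysophosphatidic acid. The probe at chr13:21619693-21619752 read 8.54, 8.98, 8.95 and 10.62 across deleted tumours 1 to 4 and 11.51, 11.78 and 12.42 in the 3 wild type tumours. The highest of the deleted values, that of tumour 4, was under the lowest wild type value. It differed by -2.63 (SE 0.51), with a limma adjusted p of 0.433, and it stayed between -3.17 and -2.37 in 22 other settings. Of the other 3 ENPP2 probes, 2 also had separate groups, with differences of -2.37 and -1.75, and the dimmest differed by -0.59 with overlapping groups.

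JCHAIN, the joining chain that plasma cells add to secreted IgA and IgM, lay at the other extreme. It read 13.78, 12.35, 11.07 and 12.26 in the deleted and 9.65, 10.74 and 10.96 in the wild type tumours. Every deleted tumour was above every wild type tumour, by 0.11 at the nearest pair, and the difference was 1.92 (SE 0.63, limma adjusted p = 0.602). Its second probe differed by 2.22 with separate groups. Of 14 leukocyte genes well above background on every array, 4 were higher in the deleted tumours at an unadjusted p below 0.05 and 0 lower, against 3.70% and 3.95% of all genes. They were CD3D, LCK, CD3E and CD8A, genes of T cells, and none of them passed the test after adjustment (smallest limma adjusted p = 0.398). MS4A1, a gene of B cells, was well above background only in deleted tumours 1, 2 and 3 and was not counted. Over all 15 genes of the list, MS4A1 included, 9 were higher and 6 lower on average in the deleted tumours, with a median difference of 0.12. The summed level of the 15 genes with MS4A1 was 12.16 to 14.05 on the log2 scale in the deleted and 12.51 to 13.48 in the wild type tumours, and their part in the JCHAIN result was not tested.

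The remaining genes with separate groups differed by less. PTP4A3, a phosphatase linked to metastasis, read 11.55, 12.08, 11.83 and 11.33 in the deleted and 11.22, 11.14 and 10.82 in the wild type tumours, a difference of 0.64 (SE 0.21, limma adjusted p = 0.587). Of its other probes, 1 differed by 1.41 and the other by 0.66, with overlapping groups in both. RNF19A, a ubiquitin ligase, read 8.46, 8.57, 8.03 and 8.54 in the deleted and 7.73, 7.90 and 7.94 in the wild type tumours, a difference of 0.54 (SE 0.16, limma adjusted p = 0.566), but its second probe had overlapping groups and a difference of 0.25. CYHR1 differed by 0.57, with overlapping groups and 0.48 on its second probe, ZHX1, a homeobox repressor, by 0.71, and PYCRL, an enzyme of proline synthesis, by 0.40. PYCRL was dim, at 6.37 to 6.84 in the deleted and 6.13 to 6.23 in the wild type tumours. Probes just inside the threshold of 3 arrays had means of 6.00 to 6.15. The PYCRL difference ran from 0.16 to 1.49 in 22 other settings. ANKRD46 and the zinc transporter SLC39A4 differed by 0.22 and 0.20, and a second SLC39A4 probe had overlapping groups and 0.12. The adjusted p-values of these 5 genes ran from 0.624 to 0.733, and their signs held in 22 other settings each.

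**Figure D5:**
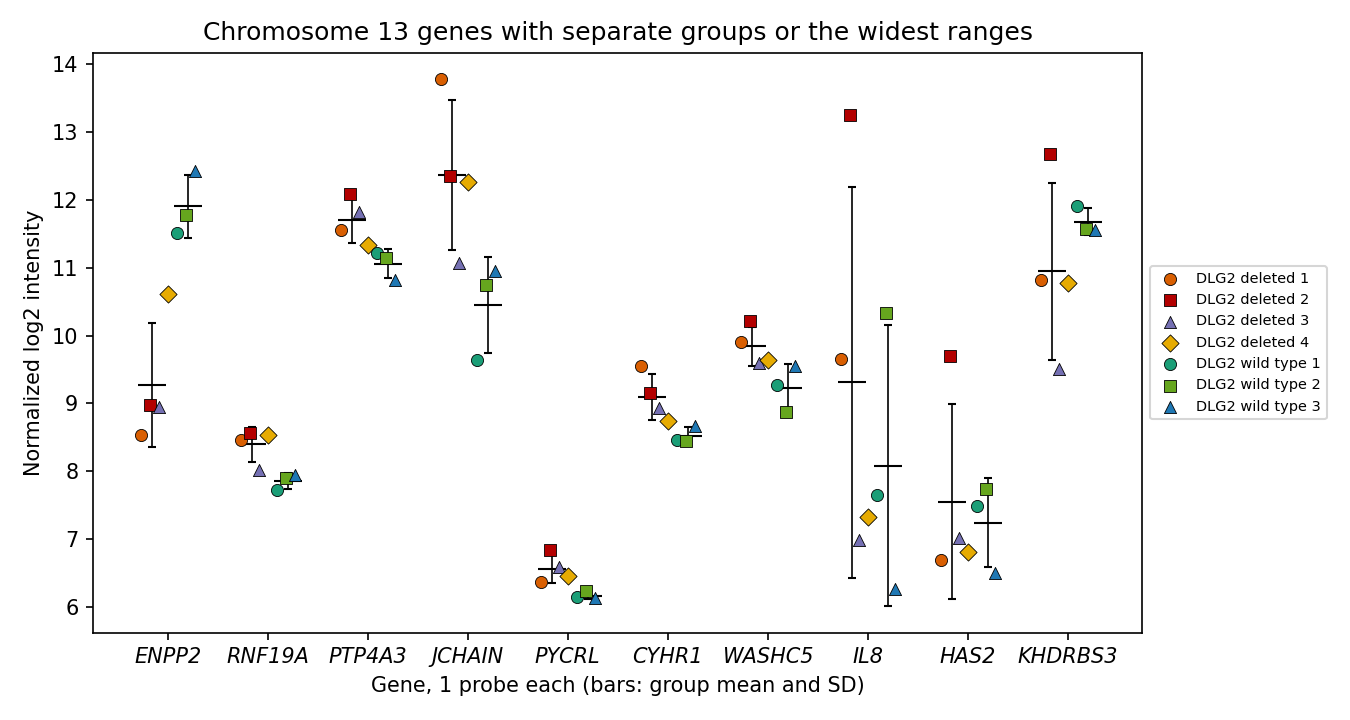
Normalized log2 intensity (vertical axis) of 7 chromosome 13 genes with separate groups and of the 3 others with the widest ranges over the tumours, with 1 probe each; black bars are group means with SD. ENPP2 is lower in all 4 DLG2 deleted tumours than in all 3 wild type tumours, and IL8, HAS2 and KHDRBS3 have their highest value in DLG2 deleted tumour 2.

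The widest range of any gene with a symbol on the chromosome belonged to IL8, the chemokine that attracts neutrophils. It read 9.66, 13.26, 6.99 and 7.33 across deleted tumours 1 to 4 and 7.65, 10.34 and 6.27 in the 3 wild type tumours, and all 4 of its probes were highest in deleted tumour 2. KHDRBS3, an RNA-binding regulator of splicing, read 10.81, 12.68, 9.50 and 10.78 in the deleted and 11.91, 11.57 and 11.56 in the wild type tumours, with deleted tumour 2 highest and deleted tumour 3 lowest. The groups of both genes overlapped.

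The partners and targets of MYC lie on many chromosomes and were read from 2 lists. Of 19 partners and antagonists, 0 were higher and 1, the ATPase RUVBL2, was lower in the deleted tumours at an unadjusted p below 0.05 (limma adjusted p = 0.662), against 3.70% and 3.95% of all genes, and the median difference was 0.05. Of 38 targets, SRM, the spermidine synthase, was higher, and the nucleolar methyltransferase FBL and the cyclin CCND2 were lower, so that 1 and 2 of 38 stood against those same shares of all genes, with a median difference of -0.09 and a smallest limma adjusted p of 0.651. In deleted tumour 2, 14 of the 38 targets had their highest value, against 18.0% of all genes, and their median deviation was 0.18. The listed targets PPAT and PAICS lie on chromosome 13 and deviated by 1.04 and 1.07 there, so this count is not separate from the chromosome profile. The median deviation of the targets was 0.00 in deleted tumour 4, the tumour with the highest MYC value. It was -0.13 in deleted tumour 1, the tumour with the lowest. Deleted tumour 3 had the lowest target median, -0.23. Over 13 genes of proliferating cells the medians were 0.00 in deleted tumour 2, 0.07 in deleted tumour 4, -0.90 in deleted tumour 1 and -0.31 in deleted tumour 3. They were 0.59 and 0.72 in wild type tumours 1 and 2, which had nearly the same profile, and 0.00 in wild type tumour 3. All 13 genes were lower on average in the deleted tumours, against 5260 of all 11119 genes.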

How the data were processed

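Total RNA of 7 canine primary OS tumours was hybridised to 1-colour Agilent Canine (V2) arrays. The deposited scanner files, made with Agilent Feature Extraction 10.7.3.1 per the file headers, hold spot intensity and local background on a linear scale; their probe positions are in canFam2. The authors normalized with RMA and a batch correction; that table was not used here. With limma 3.58.1 in R 4.3.3, spot background was corrected by normexp (offset 50) on the mean signal minus the median background, leaving out spots with an outlier or uneven-background mark, and log2 intensity was quantile normalized and averaged per probe. Probes well above background on 3 or more arrays were kept. Groups were compared by limma over all 32309 kept probes, with Benjamini-Hochberg adjustment and the study's thresholds (unadjusted p below 0.05, adjusted p below 0.1), and MYC also by an exact permutation test with scipy 1.17.1. Scripts were tested on simulated data. Symbols came from the files or, for 1845 of 20618 named probes, from the RefSeq table by accession or gene number. Of 193 member genes, 180 matched the RefSeq table of the assembly UU_Cfam_GSD_1.0, 179 of them on its chromosome 13.

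Groups followed the genotype labels. Replicate numbers are names only. Whether sections of a tumour were pooled is not given in the sources used here, so p-values measure the spread between these samples. Intensity has no read depth, and the number of arrays limits the precision. Deleted tumours 2 and 3 and wild type tumour 2 shared a slide, and the array images were read by Feature Extraction in 2 sessions of 1 day, the morning for these and deleted tumour 4 and the afternoon for the others, per the file headers. The members and lists were chosen with earlier results of these data known. Genes were named by rule: MYC, the kinase and bone lists, the 10 genes with separate groups and the smallest p, the 5 genes with the largest deviation in each of the 3 most extreme pairs of tumour and window of 20 or more members, the 5 widest ranges, and the 3 genes nearest MYC on each side in its window, with the brightest probe for each; genes named beyond these in the group counts were chosen after their values were seen. Alternatives covered background, scaling, filter, probe choice, window, batch, covariates, test and left-out tumours.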

Additional observations from a re-analysis of the deposited data

Results flagged for a closer look

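In 6 of 55 sets of 4 DLG2 deleted values examined, 1 tumour lay far from the other 3, by a gap that was a larger share of the whole range than Dixon's test allows. Chance marks about 1 in 20 sets taken at random, but the window from 40 to 45 Mb, LRRC14 and HAS2 were named for their extreme values, so the count was not set against that rate. In the window from 40 to 45 Mb the gap of deleted tumour 2, at 0.38 against -0.02 to 0.00, was 0.942 of the range, and in LRRC14 of that window it was 0.834. HAS2 stood apart in deleted tumour 2 as well, with a gap of 0.892. Deleted tumour 3 stood apart in KDR, with 0.846, and in IGFBP7, with 0.837. TNFRSF11B was high in deleted tumour 4 alone, with 0.909. These sets are not independent, since neighbouring genes of a tumour share a window.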

How the results depend on the processing

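No paired analysis was possible because the tumours came from different dogs and their numbers are only names. The MYC difference kept its sign in all settings run, from 0.02 with the session of image reading to 0.70 with the slide block. It ran from 0.10 to 0.67 leaving out 1 tumour. In the slide block only wild type tumour 2 stood for its group, so no test is given for it. In every other setting the MYC difference missed the test. With 1 tumour left out, the number of members past both thresholds was 0 to 1: a probe without a symbol was called without wild type tumour 3 (difference -1.38, limma adjusted p = 0.0780). Members at an unadjusted p below 0.05 numbered 10 with 1 probe per gene, 13 with the slide block, 46 with age as a covariate, and 20 to 51 with 1 tumour left out; members with separate groups numbered 14 with 1 probe per gene and 59 to 90 with 1 tumour left out. Counting wild type tumours 1 and 2 as 1 tumour gave 21 and 60, against 1396 and 4083 of all probes. For these differences the cause was not tested, beyond the fewer genes or tumours in the fit. The difference of the MYC window was 0.02 to 0.14 and that of the whole chromosome -0.01 to 0.11 with 1 tumour left out. Scaling normexp values to the 75th percentile moved the median difference of all probes to 0.12.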
